A study of Mus musculus with 8 samples.

Results

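Ddc, Th, Gch1, Qdpr, Maoa and Maob encode enzymes that make and break down the monoamines dopamine, noradrenaline and serotonin. Their transcripts were examined in mouse oligodendrocyte precursor cultures kept at 31.5 °C or at 37 °C. Every probe set (a group of short probes read as 1 value) annotated to 1 of these 6 symbols alone was taken, which gave 10 of the 45101 probe sets on the array. Ddc was chosen by its signal, which had one of the largest falls in this very comparison, so its values are given as a description with no test. The other 5 genes were taken for their place in the pathway. The cells came from embryos of the ICR strain at an age of 15 days, whose cerebral hemispheres were dissociated, grown for 5 days with 10% serum and then passaged to serum-free medium. The 31.5 °C group was kept at that temperature for 48 hr, the 37 °C group was kept for 48 hr at 37 °C, and 4 arrays were read in each. No transgene or drug is named for either group. The cultures started as mixed brain cultures, and the labels do not say whether the 4 replicates of a temperature were separate cultures, while they speak of 3 mice per group. Each error and p therefore measures only the spread between these samples, which may be technical.

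Monoamines are built from aromatic amino acids. Tyrosine hydroxylase (Th) turns tyrosine into L-DOPA, the step that limits dopamine and noradrenaline synthesis, and aromatic amino acid decarboxylase (Ddc) turns L-DOPA into dopamine and the hydroxylated tryptophan into serotonin. The hydroxylases need the cofactor tetrahydrobiopterin, whose synthesis starts with GTP cyclohydrolase (Gch1) and whose used form is restored by quinoid dihydropteridine reductase (Qdpr). Monoamine oxidases A and B (Maoa, Maob), on the outer mitochondrial membrane, break the amines down. In the brain, Th marks catecholamine neurons, while Maob is known as an oxidase of astrocytes and of serotonin neurons.

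The trimmed mean signal of the deposited arrays lay between 189 and 238 at 31.5 °C and between 132 and 248 at 37 °C. The lowest was that of replicate 4 at 37 °C, so each array was scaled to a common trimmed mean, with factors from 0.848 to 1.60. Signals below are scaled values without a unit, and log2 differences are 31.5 °C minus 37 °C ± SE over 4 arrays each. A floor of 9.80, the 25th percentile over all arrays, replaced lower values before log2 was taken. Probe sets with a mean under 38.2, the median over all, were not tested. Precision is limited by the number of arrays. The arrays of 1 replicate number resembled each other, so the limma fit with that number as a block (the paired fit) stands beside a result where it changes the call. All 10 fixed precursor markers, Pdgfra, Olig2 and Sox10 among them, were above the filter. Their summed signal was 16508 to 19008 at 31.5 °C and 17044 to 19983 at 37 °C, and in limma 2 of the 10 rose (Pdgfra and Lhfpl3) and 2 fell (Gpr17 and Nkx2-2). Over all probe sets tested, 6.52% passed as higher and 6.83% as lower.

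Ddc signal was several-fold lower at 31.5 °C. Probe set 1426215_at read 52.5, 55.4, 54.4 and 38.2 in replicates 1 to 4 at 31.5 °C, against 377, 538, 255 and 339 at 37 °C. The highest array at 31.5 °C was far below the lowest at 37 °C, and replicate 4 was the dimmest of the 31.5 °C arrays. The means were 50.1 ± 8.01 at 31.5 °C and 377 ± 119 at 37 °C (SD, n = 4 arrays each), a log2 difference of -2.88 ± 0.22, or 7.34-fold lower at 31.5 °C. The difference was -2.84, -3.28, -2.23 and -3.15 within the pairs of replicates 1 to 4. It was the 6th largest fall among the 22519 probe sets tested, next to those of Mobp, a structural myelin gene, and the noncoding transcript Dleu2. Of all tested probe sets 21 fell by at least 2 log2 units. In RNA from whole cultures, fewer cells that carry Ddc and less Ddc RNA per cell cannot be told apart. The other Ddc probe set, 1430591_at, lay between 0.972 and 7.26 at 31.5 °C and between 1.66 and 3.68 at 37 °C, under the floor on all 8 arrays, and gave no difference to read.

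**Figure D1:**
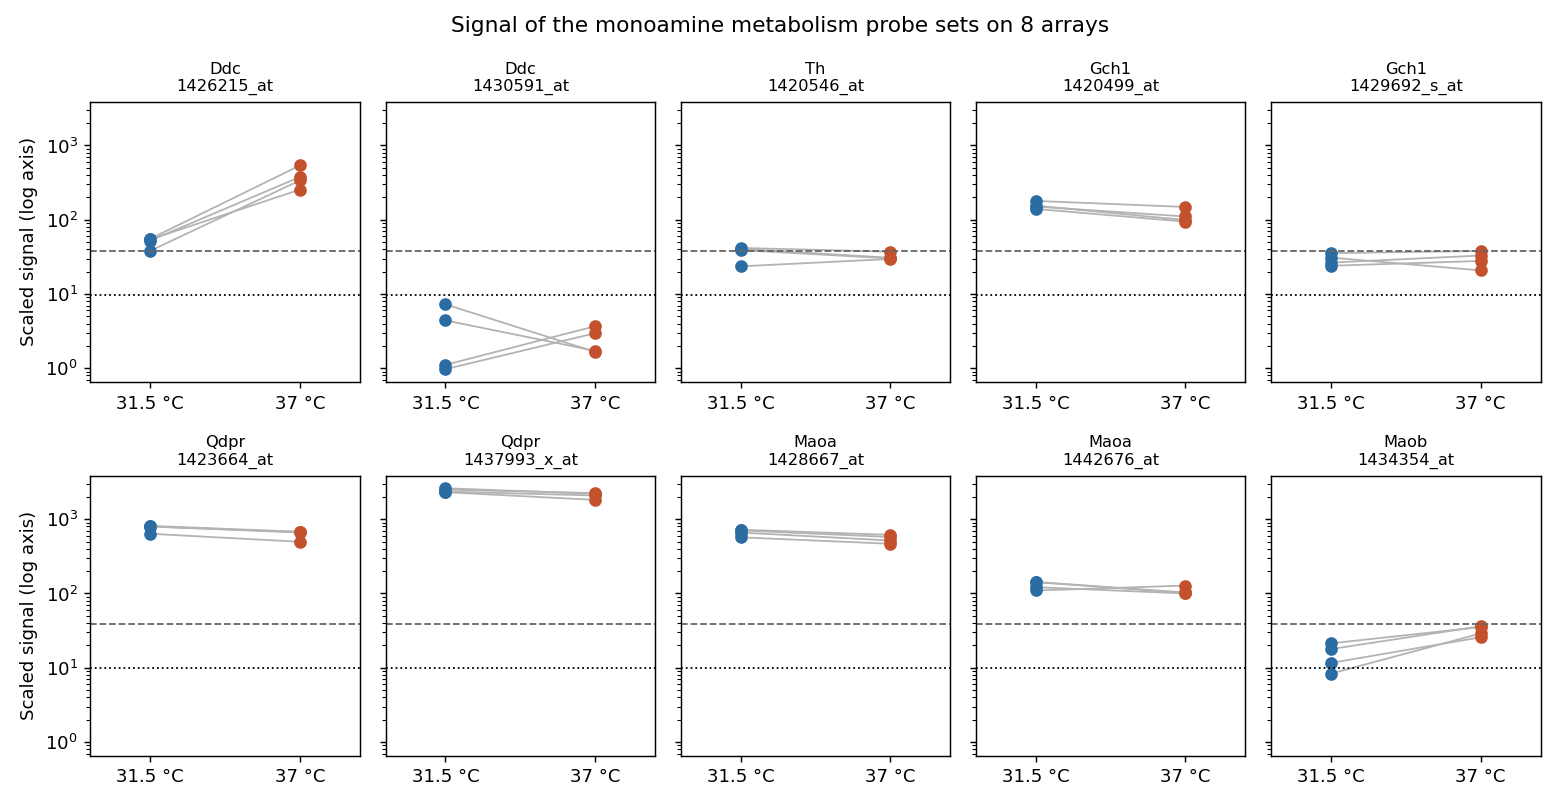
Scaled signal (log axis) of the 10 probe sets on 4 arrays at 31.5 °C (blue, left) and 4 at 37 °C (red, right), with grey lines between arrays of 1 replicate number. The dotted line is the floor of 9.80 and the dashed line the filter of 38.2. Ddc 1426215_at separates widely, and Maob separates below the filter. Gch1 1420499_at and both probe sets of Qdpr and of Maoa were slightly higher on average at 31.5 °C, and none of these 5 passed the unpaired test.

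Ddc lies on chromosome 11 from 11814101 to 11898144 of GRCm38.p6, on the minus strand, and RefSeq lists 2 transcript starts 7736 bases apart. Rodent Ddc is known to begin at different leading exons in neurons and in liver and kidney. Whether the probe sets tell the starts apart was not examined, so the 250 bases before each are shown. Those of Th, the step before Ddc, and Gch1, which had the largest positive difference of the 6 genes, are beside them. The motifs were searched on both strands and are the cAMP response element TGACGTCA, the CCAAT box (CCAAT), the TATA box TATAAA, the GC box GGGCGG the antioxidant response element TGACNNNGC and the clock E-box CACGTG. None overlaps another in these windows, and capitals mark the matches.
Ddc, far start, chr11:11898145-11898394, minus strand: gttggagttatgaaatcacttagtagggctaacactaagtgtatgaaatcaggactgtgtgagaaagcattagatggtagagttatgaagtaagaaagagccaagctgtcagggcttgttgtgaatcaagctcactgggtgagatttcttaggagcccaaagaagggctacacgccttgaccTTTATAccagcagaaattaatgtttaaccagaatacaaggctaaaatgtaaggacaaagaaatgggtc
Ddc, near start, chr11:11890409-11890658, minus strand: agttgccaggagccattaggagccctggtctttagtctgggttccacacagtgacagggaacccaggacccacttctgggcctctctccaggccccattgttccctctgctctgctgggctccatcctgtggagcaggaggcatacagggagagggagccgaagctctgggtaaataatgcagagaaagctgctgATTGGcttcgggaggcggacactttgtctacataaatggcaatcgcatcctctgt
Th, chr7:142899996-142900245, minus strand: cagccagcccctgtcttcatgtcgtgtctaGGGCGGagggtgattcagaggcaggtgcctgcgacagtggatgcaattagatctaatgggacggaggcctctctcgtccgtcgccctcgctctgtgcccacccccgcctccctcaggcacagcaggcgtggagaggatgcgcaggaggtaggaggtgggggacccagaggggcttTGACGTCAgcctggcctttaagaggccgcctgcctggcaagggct
Gch1, chr14:47189414-47189663, minus strand: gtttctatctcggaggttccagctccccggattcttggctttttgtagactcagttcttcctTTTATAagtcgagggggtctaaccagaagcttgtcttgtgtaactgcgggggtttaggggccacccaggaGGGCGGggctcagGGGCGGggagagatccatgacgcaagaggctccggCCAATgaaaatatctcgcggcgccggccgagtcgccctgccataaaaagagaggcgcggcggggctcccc
The window before the far Ddc start has a GC content of 40.8% and holds a TATA box on the opposite strand, 68 to 63 bases before the start, a motif found in 12.4% of the 32851 RefSeq windows of this length. The near one has a GC content of 56% and a CCAAT box on the opposite strand at 55 to 51 bases, a motif of 33.8% of windows. Th holds the cAMP response element, present in 1.55% of windows, 45 to 38 bases before its start, and a GC box. Gch1 holds a CCAAT box at 70 to 66 bases, a TATA box on the opposite strand at 188 to 183 bases and a pair of GC boxes, a motif found in 32.7% of windows. The antioxidant response element, in 10.2% of all windows, and the clock E-box, in 6.02%, were in none of the 4. A match is a string of letters and not a measured site.

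Th was dim at both temperatures. Its probe set 1420546_at read 23.6, 39.0, 40.8 and 41.7 at 31.5 °C and 29.6, 30.2, 30.7 and 37.1 at 37 °C. The groups overlapped, and replicate 1 at 31.5 °C was the lowest of the 8 arrays. The mean over all arrays was under the filter, so Th was not among the tested probe sets. The difference was 0.15 ± 0.20, higher at 31.5 °C in 3 of 4 pairs, and in the limma fit of all 45037 probe sets it had an adjusted p of 0.778, where 5.37% of probe sets passed. With no detection calls, a dim value says only that the probe set was near the low end of the array.

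Gch1 was higher at 31.5 °C in every pair but did not pass in the unpaired fit. Probe set 1420499_at read 140, 155, 150 and 179 at 31.5 °C, against 94.3, 99.0, 111 and 149 at 37 °C. Replicate 4 was the highest of its group at each temperature, and its 37 °C value alone reached into the 31.5 °C range. The means were 156 ± 16.7 at 31.5 °C and 113 ± 24.6 at 37 °C (SD, n = 4 each), a difference of 0.48 ± 0.15 (limma, adjusted p = 0.0703), and the pairs gave 0.57, 0.64, 0.44 and 0.27. With the replicate block the SE was 0.09 and the limma adjusted p 0.013. With median scaling, quantile normalization and array weights the adjusted p was 0.0199, 0.0329 and 0.0393, and without replicate 4 at 37 °C the unpaired difference was 0.62 with a limma adjusted p of 0.0185. It did not pass in 15 of the 25 other settings in which it was tested, among them no filter (limma adjusted p = 0.162, and 0.0571 with the block), no scaling (0.457) and the block without replicate 1 (0.0519). The dimmer Gch1 probe set 1429692_s_at was at 29.2 ± 5.07 at 31.5 °C and 29.9 ± 7.36 at 37 °C (SD, n = 4 each), under the filter, and higher at 31.5 °C in 1 of 4 pairs.

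Qdpr, which regenerates the cofactor, had small positive differences on both of its probe sets. The brighter, 1437993_x_at, read 2357, 2510, 2609 and 2313 at 31.5 °C and 2089, 2245, 2206 and 1821 at 37 °C. All 4 arrays at 31.5 °C were above all 4 at 37 °C, by a narrow margin, and the difference was 0.23 ± 0.10 (limma, adjusted p = 0.146; 0.0568 with the block). Probe set 1423664_at read 800, 814, 797 and 637 at 31.5 °C and 663, 678, 672 and 497 at 37 °C. Replicate 4 was low at each temperature, which makes the groups overlap although all 4 pairs were higher at 31.5 °C. Its pair differences lay between 0.25 and 0.36, with a mean of 0.28 ± 0.13 (limma, adjusted p = 0.191), and it passed only with the block (SE 0.07, adjusted p = 0.0267).

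The oxidases had differences of opposite sign. Maoa, by its brighter probe set 1428667_at, read 723, 662, 706 and 571 at 31.5 °C and 616, 516, 577 and 467 at 37 °C. The groups overlapped while each pair was higher at 31.5 °C, by 0.23 to 0.36, for a mean difference of 0.29 ± 0.12 (limma, adjusted p = 0.14; 0.0252 with the block). Probe set 1442676_at of Maoa read 110, 143, 122 and 142 at 31.5 °C and 128, 102, 100 and 103 at 37 °C, so pair 1 ran the other way. Its difference was 0.25 ± 0.12 (limma, adjusted p = 0.213; 0.203 with the block).

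Maob, by 1434354_at, its only probe set, read 17.8, 11.6, 21.3 and 8.34 at 31.5 °C, against 36.2, 25.7, 35.3 and 29.0 at 37 °C. The groups did not overlap, and replicate 4 at 31.5 °C was under the floor. The means were 14.8 ± 5.88 at 31.5 °C and 31.5 ± 5.03 at 37 °C (SD, n = 4 each). The difference of -1.11 ± 0.27 rests on dim values: Maob was under the filter, its adjusted p in the limma fit of all 45037 probe sets was 0.0745, and 0.0497 there with the block, where 6.65% of probe sets passed. Groups that do not overlap occurred in 12.9% of all 45037 probe sets. A floor at the median of all values left no difference. The log2 ratio of Maoa to Maob within an array does not depend on its scale factor, apart from the floored value. Quantile normalization is no such factor and can change this ratio. Chosen after these values were seen, it is given without a test: it was 5.34, 5.83, 5.05 and 5.86 at 31.5 °C and 4.09, 4.33, 4.03 and 4.01 at 37 °C. The genes are neighbours on the X chromosome, 21469 bases apart in GRCm38.p6.

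Of the 10 probe sets, 6 passed the filter, and apart from Ddc 5 were tested. None of these 5 passed at an adjusted p of 0.05 in the unpaired limma fit. Over all probe sets tested, 13.4% passed, 6.52% as higher and 6.83% as lower. With the block 3 of the 5 passed (Gch1 1420499_at, Qdpr 1423664_at and Maoa 1428667_at), all higher at 31.5 °C, where 12.4% of all probe sets passed as higher, 13.9% as lower and 26.4% in either direction. The 5 tested differences lay between 0.23 and 0.48, while the median of all probe sets tested was -0.005. Median scaling moves that median by 0.09 and so adds to each positive value. Groups that do not overlap occurred in Qdpr 1437993_x_at among these 5, and in 21.1% of all probe sets tested.

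**Figure D2:**
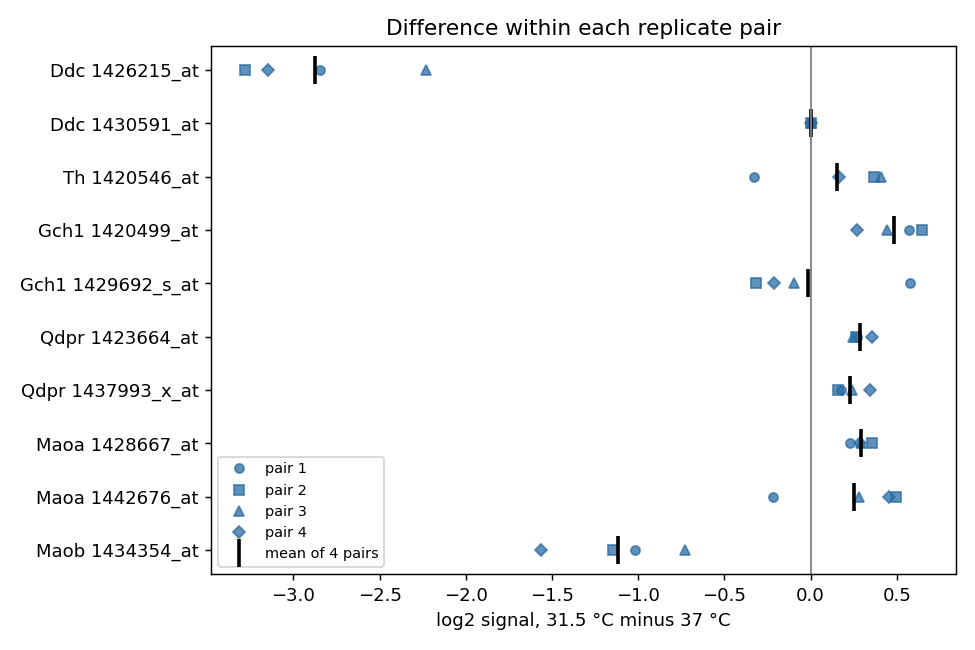
Log2 difference, 31.5 °C minus 37 °C, within each of the 4 replicate pairs (markers) and their mean (black bar) for the 10 probe sets. Ddc lies between -3.28 and -2.23 and Maob between -1.56 and -0.73, while Gch1 1420499_at, both Qdpr probe sets and Maoa 1428667_at lie above 0 in all 4 pairs.

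The rest of the pathway was read from 8 lists with 89 genes, each gene by its brightest probe set. Of these 69 were matched to a probe set of their own, 40 were under the filter and 29 were tested. In limma 4 rose, 5 fell and 20 did not pass, and with the block 6 rose and 6 fell. That is 31% of the tested genes (41.4% with the block) where 13.4% of all probe sets passed (26.4% with the block). These shares differ in unit, genes against probe sets. With 1 probe set per gene over the whole array, 1787 of 11528 passed in the unpaired fit. The lists were chosen with results of these data known, Aldh1a1 and Aldh3a1 among them. Both of these were above the filter only through the temperature at which each was bright. The median difference of the 29 tested genes was -0.05, against -0.005 over all probe sets tested.

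Of the other genes of amine synthesis, 7 were matched and 6 of these, among them Tph1, Tph2 and Dbh, were under the filter. The 1 tested was Pnmt, which makes adrenaline from noradrenaline. It read 39.4, 54.8, 63.4 and 62.7 at 31.5 °C and 44.9, 10.6, 31.4 and 22.7 at 37 °C, and was above the filter through its 31.5 °C arrays. The groups overlapped, 3 of 4 pairs were higher at 31.5 °C, and the difference of 1.16 ± 0.39 did not pass (limma, adjusted p = 0.0847; 0.0698 with the block).

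Among 4 tested genes of the biopterin cofactor, 1 fell and none rose, and with the block 2 fell. Pcbd2, a dehydratase that works with Qdpr in recycling, read 325, 313, 317 and 252 at 31.5 °C and 463, 367, 467 and 408 at 37 °C. The groups did not overlap, and the difference was -0.50 ± 0.12 (limma, adjusted p = 0.0279, and 0.185 with median scaling). The call was also lost without a filter (adjusted p = 0.0593) and without any of 5 single arrays, replicate 2 or 3 at 31.5 °C or replicate 1, 3 or 4 at 37 °C (0.0517 to 0.0676). Pts, the synthase after Gch1, was at 202, 200, 216 and 175 at 31.5 °C and 331, 271, 309 and 194 at 37 °C. It was lower at 31.5 °C in all 4 pairs, by -0.46 ± 0.17 on average (limma, adjusted p = 0.103; 0.0252 with the block). The differences of Spr, the reductase that completes the cofactor, and of Cbr1 were -0.04 ± 0.12 and -0.06 ± 0.15 (limma, adjusted p = 0.883 and 0.826), and both were above 0 with median scaling. Gchfr, the feedback regulator of Gch1, was under the filter, at 21.6 to 27.6 at 31.5 °C and 26.5 to 46.1 at 37 °C.

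Of the genes around pyridoxal phosphate, the cofactor of Ddc itself, 1 of 2 tested fell. Pdxk, the kinase that makes it, read 319, 317, 360 and 371 at 31.5 °C and 455, 433, 470 and 545 at 37 °C on probe set 1427929_a_at, without overlap. The difference was -0.48 ± 0.10 (limma, adjusted p = 0.0196). The limma adjusted p was 0.0746 with median scaling, 0.738 with no scaling, and 0.0572 and 0.0567 without replicate 1 and 2 at 31.5 °C. The dimmer tested probe set of Pdxk, 1427931_s_at, had 0.39 ± 0.15 (limma, adjusted p = 0.114). Pdxk 1427930_at, under the filter, averaged 43.9 at 31.5 °C and 26.9 at 37 °C (0.71 ± 0.10). Both disagree in sign with the brightest probe set. Pdxp, the phosphatase, had 0.04 ± 0.12 (limma, adjusted p = 0.85). Among 7 tested decarboxylases of the same cofactor and their regulators, 1 rose, Azin2, an antizyme inhibitor that has lost decarboxylase activity. Azin2 read 94.9 to 116 at 31.5 °C and 58.2 to 77.7 at 37 °C (0.63 ± 0.11, limma, adjusted p = 0.00981). With the block 3 rose, Azin2, the ornithine decarboxylase Odc1 (0.31, limma, adjusted p = 0.0189) and the sphingosine phosphate lyase Sgpl1 (0.25, limma, adjusted p = 0.0418). Gad1 and Gad2, which make GABA, did not pass, at -0.16 ± 0.12 and 0.25 ± 0.18 (limma, adjusted p = 0.44 and 0.399).

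Both chains of the main carrier of aromatic amino acids rose. Of 5 tested, 2 rose, 0 fell and 3 did not pass, and with the block 2 rose and 1, Slc16a10, fell. Slc7a5, its light chain, which takes up large neutral amino acids such as tyrosine, tryptophan and L-DOPA, read 1174, 750, 978 and 979 at 31.5 °C, against 527, 494, 526 and 433 at 37 °C. All arrays at 31.5 °C were above all at 37 °C, and the difference was 0.96 ± 0.14 (limma, adjusted p = 0.00449). It passed under each of the 26 other settings tried, with a limma adjusted p of at most 0.0426. Slc3a2, the heavy chain, read 2745, 2423, 2485 and 2162 at 31.5 °C and 1978, 1745, 1794 and 1754 at 37 °C, a difference of 0.43 ± 0.10 (limma, adjusted p = 0.0226). The groups of Slc3a2 did not overlap either, but the call was lost with median scaling (adjusted p = 0.0873) and without any of 5 single arrays, all but replicate 4 at 31.5 °C and replicates 1 and 3 at 37 °C (0.053 to 0.0642).

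Breakdown genes other than the oxidases went both ways, with 1 rise and 2 falls among 7 tested. Comtd1, named for its likeness to the catechol methyltransferase, read 128, 166, 120 and 160 at 31.5 °C and 240, 213, 227 and 220 at 37 °C, without overlap (-0.66 ± 0.12, limma, adjusted p = 0.0104). The call ended with no scaling (0.416), with the block and no filter (0.0862) and with the block without replicate 1 (0.0518). The aldehyde dehydrogenase genes differed: Aldh3a1 rose by 1.98 ± 0.16 and Aldh1a1, which also marks a set of dopamine neurons, fell by 1.71 ± 0.41 on the log2 scale (limma, adjusted p = 0.000453 and 0.0272). Each was above the filter through the temperature at which it was bright: Aldh3a1 averaged 91.5 at 31.5 °C and 22.9 at 37 °C, and Aldh1a1 23.9 at 31.5 °C and 81.4 at 37 °C. Without the filter the limma adjusted p of Aldh3a1 was 0.00439. The call of Aldh1a1 ended without the filter (adjusted p = 0.0981), with the higher floor (0.0764) and without any of 4 single arrays, replicate 2 or 3 at 31.5 °C or replicate 1 or 2 at 37 °C (0.0531 to 0.0708). Aldh2, the mitochondrial enzyme known to oxidise the dopamine aldehyde, did not pass, at -0.25 ± 0.16 (limma, adjusted p = 0.365). Of amine transporters only Slc29a4, a low-affinity carrier of the plasma membrane, was tested, and it did not pass (0.25 ± 0.10, adjusted p = 0.146). Of 23 matched receptors 21 were under the filter. Htr1b, a serotonin receptor, read 33.8, 59.1, 37.3 and 32.4 at 31.5 °C and 81.5, 53.0, 68.1 and 110 at 37 °C. These groups overlapped in pair 2, and the difference of -0.94 ± 0.26 passed narrowly (limma, adjusted p = 0.0433) and not with the block (0.0635) nor without any of 6 single arrays, all but replicate 2 at each temperature (0.0674 to 0.104).

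**Figure D3:**
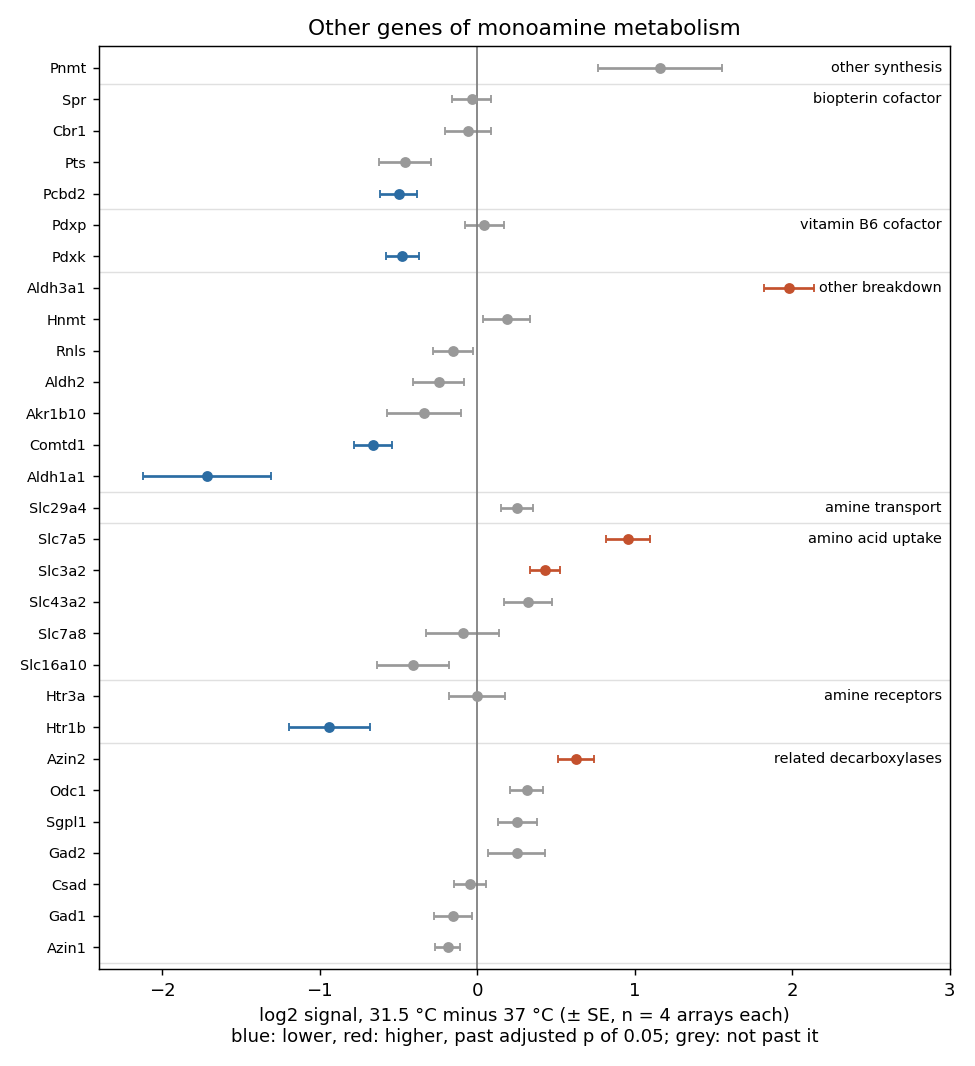
Log2 difference, 31.5 °C minus 37 °C, ± SE (n = 4 arrays each) of the 29 tested genes of the 8 pathway lists, by list. Blue points (5 falls) and red points (4 rises) passed an adjusted p of 0.05, and the 20 grey points did not. The amino acid carrier pair Slc7a5 and Slc3a2 lies to the right, and Pcbd2 and Pdxk, the latter by its brightest probe set alone, lie to the left.

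The genes beside Ddc on chromosome 11 had far smaller differences. Grb10, the imprinted growth factor adaptor that starts 32355 bases beyond Ddc, was at 690 to 838 at 31.5 °C and 662 to 732 at 37 °C (0.12 ± 0.09, limma, adjusted p = 0.425). Fignl1 on the other side had -0.19 ± 0.21 and Ikzf1 0.10 ± 0.25 (limma, adjusted p = 0.612 and 0.836). Of the 5 tested genes of this list Vwc2 fell (-0.57 ± 0.16, limma, adjusted p = 0.0477), a call lost under 7 of the 8 fits without 1 array (0.0717 to 0.117) and under 18 of the 25 other settings in which it was tested, with a limma adjusted p of up to 0.585.

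Most markers of the neurons that use these amines were dim. A pick of 9 genes held Th, Slc6a3, Slc18a2, Tph1, Tph2, Slc6a4, Dbh, Slc6a2 and Phox2a. Tph1 came from the synthesis list and is in none of the neuron lists. All 9 were under the filter, with single-array signals from 0.778 to 75.7, the highest being Dbh. The pick leaves out Nr4a2 and Aldh1a1, which were above the filter. The serotonin neuron list had 7 matched markers, none above the filter, with a summed signal of 77.6 to 118 at 31.5 °C and 101 to 156 at 37 °C, and Gata3 was at the floor on all arrays. The noradrenaline list had 6 matched markers and none above the filter, at 100 to 204 at 31.5 °C and 135 to 189 at 37 °C. Of the 11 dopamine neuron markers 2 were tested and both fell, Aldh1a1 and Nr4a2, where 6.83% of all probe sets tested passed as lower. The summed dopamine list was 270 to 325 at 31.5 °C and 407 to 512 at 37 °C. Much of this sum comes from the same 2 genes. Nr4a2 averaged 111 at 31.5 °C and 212 at 37 °C, and Aldh1a1 23.9 and 81.4. The other 9 markers were under the filter, Th among them, so the sum is not a reading of the list as a whole. Nr4a2, an immediate early transcription factor known in dopamine neurons to drive Th and Ddc, read 78.7, 133, 119 and 112 at 31.5 °C and 184, 271, 219 and 174 at 37 °C. All arrays at 31.5 °C were lower (-0.94 ± 0.19, limma, adjusted p = 0.0157), all 4 of its tested probe sets had the same sign and 2 of them passed. The call was lost without the filter (limma, adjusted p = 0.0549) and with no scaling (0.0727). The Nr4a2 probe sets 1433422_at and 1433423_at were under the filter and had the other sign, at 0.36 ± 0.49 and 0.06 ± 0.06. The part of Nr4a2 in the Ddc difference was not tested.

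Other cell types whose share could move with Ddc were read the same way, and their part in the Ddc difference was not tested. Over all probe sets tested, 6.83% passed as lower and 6.52% as higher, and with the block 13.9% and 12.4%. Of 8 tested oligodendrocyte markers 6 fell and none rose, and the list summed to 9592 to 13690 at 31.5 °C and 18953 to 23631 at 37 °C, without overlap. Pigment cell markers, which share the use of L-DOPA, gave 1 fall among 5 tested: Dct, the dopachrome tautomerase of melanin synthesis, read 44.0, 60.2, 37.7 and 42.8 at 31.5 °C and 160, 193, 129 and 86.1 at 37 °C (-1.58 ± 0.25, limma, adjusted p = 0.00583). With the block 2 fell, Dct and the transcription factor gene Mitf (-0.48, limma, adjusted p = 0.00813). The pigment list summed to 4630 to 5316 at 31.5 °C and 4403 to 5005 at 37 °C, mostly from Ednrb (4060 to 4910 at 31.5 °C, 3649 to 4403 at 37 °C). Without Ednrb, a choice made after seeing the data, the other 7 summed to 406 to 575 at 31.5 °C and 602 to 754 at 37 °C, without overlap. Tyr and Tyrp1 were under the filter and Mlana was at the floor on all arrays. The summed signals of astrocyte markers (10017 to 17505 at 31.5 °C, 13203 to 22963 at 37 °C, 1 of 10 lower, 5 with the block) and general neuron markers (10672 to 13694 at 31.5 °C, 11131 to 15763 at 37 °C, 1 of 10 higher and 1 lower, 1 and 3 with the block) overlapped. So did those of microglia (5815 to 10074 at 31.5 °C, 6183 to 13582 at 37 °C), of vessel cells (427 to 1477 at 31.5 °C, 439 to 1186 at 37 °C) and of fibroblasts (7579 to 15455 at 31.5 °C, 8153 to 12681 at 37 °C). Of the 10, 4 and 10 tested markers of these last lists none passed in limma, while with the block 3, 1 and 3 fell. Within pairs, the astrocyte, neuron and microglia sums were lower at 31.5 °C in all 4 pairs. The fibroblast sum was lower in 3 pairs and the vessel cell sum in 2.

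The transcripts most like Ddc were sought among 20497 tested probe sets with 1 symbol, by the root mean square difference between log2 signals over the 8 arrays, each centred on its own mean. A small value needs a fall of about the same size, so the fall of each is a result of the choice. The median over all was 1.49. The closest was Tppp, a tubulin-binding gene of oligodendrocytes, at 0.30, with 65.9, 67.4, 102 and 49.8 at 31.5 °C and 367, 651, 306 and 295 at 37 °C. Tppp, like Ddc, was lowest at 31.5 °C in replicate 4 and highest at 37 °C in replicate 2. The choice by likeness over all 8 arrays favours such a match. Dleu2, a noncoding transcript, followed at 0.31, then Bace2, a beta-secretase gene, at 0.45, the histone gene H3c11 at 0.45 and the collagen gene Col20a1 at 0.53. Col20a1 had the same lowest and highest arrays as Ddc, and Dleu2 and H3c11 were also highest at 37 °C in replicate 2. H3c11 was under the floor on 3 of 4 arrays at 31.5 °C. Bace2 read 10.6 to 18.4 at 31.5 °C and 64.7 to 69.2 at 37 °C, a far narrower range at 37 °C than that of Ddc.

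**Figure D4:**
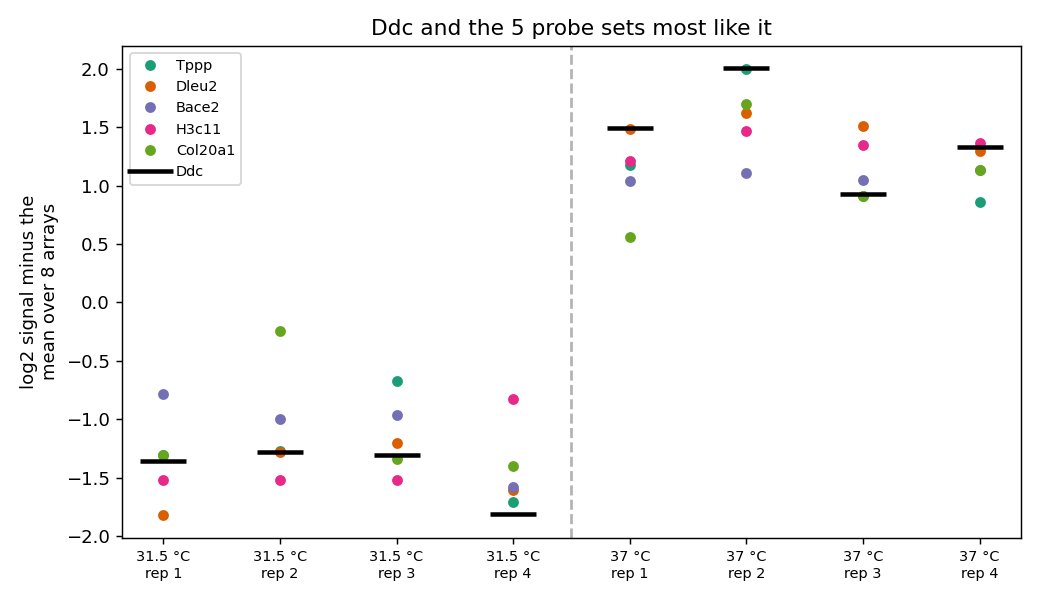
Log2 signal on each of the 8 arrays minus the mean of the probe set over all arrays, for Ddc (black bars) and the 5 probe sets with the smallest root mean square difference to it (points), 31.5 °C left of the dashed line and 37 °C right of it. Tppp at 0.30 and Dleu2 at 0.31 lie closest. Ddc, Tppp, Dleu2, H3c11 and Col20a1 are all highest in replicate 2 at 37 °C.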

How the data were processed

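Total RNA from 8 samples of mouse oligodendrocyte precursor cultures, 4 per temperature, was read on 1-colour Affymetrix arrays. The deposited values are linear intensity values, 1 per probe set, that the authors made with MAS5, per the submitters' processing notes, which give no version here, and no detection calls came with them. The table has 45101 probe sets, of which 64 are controls and were not used. Of the others 34945 carried 1 symbol, 932 several and 9160 none, and only those with 1 named a gene. Arrays were brought to 1 common trimmed mean, the average over all 8 (2% off each end), values under the 25th percentile (9.80) were raised to it, and log2 was taken. The 22519 probe sets with a mean at or above the 50th percentile (38.2) were tested for 31.5 °C minus 37 °C with limma 3.58.1 in R 4.3.3 (lmFit and eBayes, two-sided, Benjamini-Hochberg over all tested, threshold 0.05).

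Arrays of the same replicate number deviated together from their group means (correlations across probe sets of 0.522, 0.385, 0.442 and 0.578, against at most 0.00334 for different numbers), so the numbers pair the arrays. The members and lists were chosen with earlier results of these data known. The text names all 6 members, up to 3 genes of smallest p past the threshold in each pathway list, genes whose absence matters, and the 5 probe sets most like Ddc. Pnmt, Pts, Spr, Cbr1, Pdxp, Gad1, Gad2, Aldh2, Slc29a4, Grb10, Fignl1 and Ikzf1 did not pass in the unpaired fit. They and Gchfr, which was under the filter, are named to show such steps. Pts passed with the block (limma, adjusted p = 0.0252). Slc16a10, Odc1, Sgpl1 and the marker genes Pdgfra, Lhfpl3, Gpr17, Nkx2-2, Nr4a2, Dct, Mitf and Ednrb were named after their values were seen. Promoter windows come from RefSeq on GRCm38.p6, with 5 of the 6 members in the table and Maob not used there. The unpaired fit was tested on simulated data drawn without pairing between arrays. The fit with the block was not simulated, nor were differences as small as those of the tested members other than Ddc. Alternatives changed the scaling, floor, filter, probe set rule, block, variance model and each array. Figures used matplotlib 3.10.9 in Python 3.11.15.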

Additional observations from a re-analysis of the deposited data

Results flagged for a closer look

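Of 38 groups of 4 arrays examined (9 member probe sets, without the Ddc probe set that lay under the floor on every array, and the 10 list genes that passed, Vwc2 among them, at each temperature), 8 held an array whose distance from its nearest neighbour took a larger share of the group's range than Dixon's critical value for 4 samples. Chance flags about 1 in 20 groups, and the groups are not independent, since the same arrays serve all of them. Replicate 4 at 31.5 °C read 38.2 for Ddc 1426215_at against 52.5 to 55.4 in the others, 637 for Qdpr 1423664_at against 797 to 814, and 252 for Pcbd2 against 313 to 325. Replicate 4 at 37 °C read 497 for Qdpr 1423664_at against 663 to 678 and 37.1 for Th against 29.6 to 30.7. Replicate 1 at 31.5 °C read 23.6 for Th against 39.0 to 41.7. Replicate 1 at 37 °C read 128 for Maoa 1442676_at against 100 to 103, and 53.4 for Vwc2 against 76.2 to 81.5. Replicate 4 at 37 °C also had the lowest deposited trimmed mean, 132.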

How the results depend on the processing

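The Ddc difference of 1426215_at stayed between -3.09 and -2.69 over 26 other settings. With the replicate block 5938 probe sets changed, against 3007 without it (6300 with median scaling added, 5885 with quantile normalization added), and 3 member probe sets other than Ddc passed instead of 0 (4 with median scaling added, 3 with quantile normalization or with no filter added, where Maob was the third and Gch1 was not called at 0.0571). Leaving out 1 replicate number at both temperatures with the block gave 1 in each case. These added combinations were chosen after seeing the data. Without the block, 1 member probe set, Gch1 1420499_at, passed with quantile normalization, median scaling or array weights. Median scaling gave 1656 changed probe sets, 61.4% of them higher against 48.8%, no scaling 609, and 1 probe set per gene 1787. Leaving out 1 array gave 1588 to 2755 changed probe sets, 0 to 1 member probe sets other than Ddc and 5 to 9 genes of the 9 lists, against 10. The lists gave 6 with median scaling or no filter, 4 with no scaling and 5 with the filter at the 70th percentile. The causes were not tested, except that fewer arrays or units are tested in some settings by construction. The changed count was lowest among the single-array fits without replicate 3 at 31.5 °C. No tested member probe set and none of the 10 list genes that passed changed sign under any setting. Of 18 other named genes run the same way after seeing the data, 4 changed sign, none of them called in any setting. Spr had 0.053 with median scaling (also with the block), 0.045 with no scaling and 0.029 with the block without replicate 1. Cbr1 had 0.029 with median scaling (also with the block), 0.020 with no scaling, 0.0034 with array weights and 0.066 with the block without replicate 4, where Pdxp had -0.0048. Leaving out 1 array gave -0.095 to 0.032 for Spr, -0.11 to 0.071 for Cbr1, -0.051 to 0.11 for Pdxp and -0.055 to 0.25 for Ikzf1. With no detection calls, whether Th, Maob or the dimmer Gch1 probe set were above background was not measured.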
